A study of Mus musculus with 32 samples.

Results

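The response of the adult mouse basolateral amygdala to social defeat was measured at day 1, in 4 libraries from defeated adults set against 4 libraries from control adults. The comparison was chosen by its labels alone and takes 8 of the 32 libraries of the series. The groups used here are adult defeat at day 1, adult control at day 1, adolescent defeat at day 1, adolescent control at day 1, adult defeat at day 21 and adult control at day 21, with 4 libraries each. Polyadenylated RNA was sequenced, and the design text gives mice of 6 and 9 weeks without tying either age to a class. The labels state no strain, allele or drug, and they give neither the event from which the days are counted nor whether each library is a separate animal. The p-values therefore measure the spread between these samples, which may be technical.

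The basolateral amygdala is the group of nuclei, built mainly from glutamatergic projection neurons and local inhibitory neurons, through which sensory signals acquire emotional value. Social defeat, the exposure of a mouse to an aggressive opponent, is a widely used stress procedure. Strong neuronal activity switches on immediate early genes within minutes, and these encode transcription factors and synaptic proteins. The account below concentrates on the genes outside the immediate early and circadian clock lists. These are grouped by role, among them receptors, metabolic enzymes, chromatin enzymes and proteins of RNA handling. Whether they respond to neuronal activity was not tested.

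Library totals were 63140198 to 69148160 counts in adult defeat at day 1 and 63736712 to 70774460 in adult control at day 1, so depth was close in both groups. Slc17a7, the vesicular glutamate transporter of these projection neurons, was at 806 to 1279 CPM (library-size normalised counts, with TMM factors) in the defeat libraries and at 810 to 1201 CPM in the control libraries. Rspo2, a marker of basolateral amygdala projection neurons in mouse, was at 11 to 17.5 CPM in defeat and 13.2 to 19.5 CPM in control. Transcripts of the choroid plexus, the epithelium that makes cerebrospinal fluid, varied most between libraries. Ttr, its most abundant transcript, was at 4.70, 1340, 2228 and 22.2 CPM in the defeat libraries and at 2342, 10.3, 6.51 and 14.7 CPM in the control libraries. Ttr was thus high in 2 defeat libraries and in 1 control library, and the choroid plexus list of 18 genes summed to 248 to 3915 CPM in defeat and 221 to 4042 CPM in control.

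Of 23778 genes tested, 74 were higher in defeat (0.311% of the genes tested) and 10 were lower (0.0421%) at a Benjamini-Hochberg adjusted p under 0.05 in edgeR's quasi-likelihood test. The changes were small: 72 of the 74 higher genes differed by less than 2-fold, with a median log2 change of 0.37 and a range of 1.12- to 2.42-fold. Of the 10 lower genes, 8 differed by less than 2-fold, with a median log2 change of −0.45. The other 2 were gene models at under 2 CPM in every adult library at day 1. All 4 defeat libraries lay above all 4 control libraries for 71 of the 74 higher genes, a pattern shown by 3.07% of the genes tested. All 4 defeat libraries lay below all 4 control libraries for 10 of the 10 lower genes, a pattern shown by 2.35% of the genes tested. These shares are not independent of the test that made the calls. The 3 higher genes whose groups overlapped were Mest, Zkscan3 and Lzts2. The 2 higher genes that changed by more than 2-fold were Vwf, described below, and Mir6982, a microRNA gene at 0.783 to 0.921 CPM in defeat and 0.282 to 0.441 CPM in control. Mir6982 lies inside Camk2a on the same strand, so its reads cannot be told apart from those of the host transcript, whose own log2 change was 0.02.

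Immediate early and clock genes made up 15 of the 84 called genes, all of them higher in defeat: Egr4, Per1, Fosl2, Nr4a3, Egr1, Gadd45b, Junb, Ier2, Dbp, Nr1d1, Per2, Ciart, Cry2, Bhlhe40 and Bhlhe41. Egr4, a zinc finger transcription factor of the early growth response family, had 121, 98.0, 101 and 96.6 CPM in defeat and 59.7, 56.5, 53.0 and 52.7 CPM in control (log2 change 0.91 ± 0.12 SE, edgeR adjusted p = 0.000619). Its groups were far apart. Widely used activity markers did not pass in edgeR's test: Fos had a log2 change of 0.94 (adjusted p = 0.244), Arc 1.01 (adjusted p = 0.133) and Npas4 0.67 (adjusted p = 0.127). Of the remaining 69 called genes, 7 were predicted gene models or microRNA genes and are only counted. The other 62 are 56 higher and 6 lower genes, most but not all of which are described below by role.

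Several of the higher genes have promoter entries in the RefSeq table (build GRCm38.p6), and 57 of the 74 higher genes were matched by gene ID. The 250 bases before the start site were searched on both strands. The letters CCAAT, the core of the element bound by the factor NF-Y, were found in 30 of the 57 genes (52.6%). They were in 33.9% of all 32851 promoters and in 39.4% of the tested genes with an entry. The shares of genes count a match in any promoter of the gene, so the share of all promoters is in another unit. CACGTG, the E-box, was found in 7 of the 57 (12.3%), against 6.02% of all promoters and 8.94% of the tested genes with an entry. Among the 7 were Per1, Ciart, Gadd45b and Bhlhe41 of the activity and clock lists. TGACGTCA, the cyclic AMP response element, was in 2 (3.51%), against 1.55% and 2.60%. Other letters were set against the tested genes with an entry (N is any base). Shares were lower for TGANTCA of Fos and Jun (3.509% against 5.914%) and GAAANNGAA of interferon regulatory factors (5.263% against 7.498%). The Egr variant GCGGGGGCG was lower too (3.509% against 4.924%). Shares were higher for the Egr variant GCGTGGGCG (3.509% against 1.046%) and for TTANGTAA of Dbp (3.509% against 1.918%). They were close for ACANNNTGT of the glucocorticoid receptor (5.263% against 5.098%) and CACCCCAC of the sterol regulatory factors (3.509% against 3.411%). No difference between these shares was tested. The promoters of Vipr1, Fasn, Ppp1r3c and H2-D1 are shown because these genes are described in detail below and hold CCAAT on either strand. Capitals mark CCAAT or its reverse complement ATTGG and, in Ppp1r3c, also CACGTG. They are chr9:121642466-121642715, plus strand, for Vipr1, chr11:120824548-120824797, minus strand, for Fasn, chr19:36736605-36736854, minus strand, for Ppp1r3c, and chr17:35262844-35263093, plus strand, for H2-D1, each written 5′ to 3′ on the gene's strand.
Vipr1: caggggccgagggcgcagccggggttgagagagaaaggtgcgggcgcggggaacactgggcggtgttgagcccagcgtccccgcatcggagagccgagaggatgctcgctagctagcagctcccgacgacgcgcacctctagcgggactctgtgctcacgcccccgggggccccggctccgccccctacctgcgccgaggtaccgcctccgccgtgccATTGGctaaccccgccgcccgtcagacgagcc
Fasn: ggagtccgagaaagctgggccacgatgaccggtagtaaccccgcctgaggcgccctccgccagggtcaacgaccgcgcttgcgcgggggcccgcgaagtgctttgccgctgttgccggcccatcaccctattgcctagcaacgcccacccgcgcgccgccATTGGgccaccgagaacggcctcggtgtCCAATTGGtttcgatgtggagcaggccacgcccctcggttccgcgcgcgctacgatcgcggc
Ppp1r3c: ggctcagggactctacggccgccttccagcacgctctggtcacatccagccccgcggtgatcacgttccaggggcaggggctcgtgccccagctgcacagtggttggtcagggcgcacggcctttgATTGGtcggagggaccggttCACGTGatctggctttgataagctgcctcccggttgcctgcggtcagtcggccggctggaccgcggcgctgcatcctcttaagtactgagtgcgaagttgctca
H2-D1: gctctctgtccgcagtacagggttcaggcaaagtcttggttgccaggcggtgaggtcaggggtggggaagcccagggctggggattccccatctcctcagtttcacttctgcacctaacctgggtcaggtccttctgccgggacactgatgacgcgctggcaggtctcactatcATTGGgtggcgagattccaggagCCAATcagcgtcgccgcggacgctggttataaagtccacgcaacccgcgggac
In Vipr1 the single match began 32 bases before the start site, and in Fasn the matches began 90, 62 and 59 bases before it. The letters describe these windows and do not show that a factor was bound.

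Single receptor genes rose outside the activity and clock lists. Vipr1 encodes VPAC1, a G protein-coupled receptor for the neuropeptides VIP and PACAP, and had the smallest p of all genes outside those lists. It had 29.4, 26.1, 31.7 and 31.0 CPM in the defeat libraries and 21.4, 22.8, 21.99 and 21.4 CPM in the control libraries (log2 change 0.43 ± 0.06 SE, edgeR adjusted p = 0.00102). The lowest defeat library was above the highest control library. Hrh3, the histamine H3 receptor, which acts on nerve terminals to limit transmitter release, had 168, 152, 173 and 161 CPM in defeat and 126, 125, 129 and 128 CPM in control (log2 change 0.36 ± 0.06 SE, adjusted p = 0.00543). Its control libraries were tightly grouped, and all 4 defeat libraries lay above them. Chrm4, the muscarinic M4 acetylcholine receptor, which is coupled to inhibitory G proteins, had 30.9, 30.4, 28.6 and 27.9 CPM in defeat and 20.6, 21.7, 23.8 and 22.7 CPM in control (log2 change 0.41 ± 0.09 SE, adjusted p = 0.0478). Chrm4 passed narrowly: its call was lost when any 1 of the 8 libraries was left out. Tnfrsf25, the death receptor for the cytokine TL1A, had 14.5, 10.01, 13.6 and 11.7 CPM in defeat and 6.97, 6.04, 6.75 and 5.83 CPM in control (log2 change 0.96 ± 0.22 SE, adjusted p = 0.0408). Its groups were separate, but its call held in only 1 of the 8 fits that left out 1 library, the one without defeat replicate 2.

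Taken as classes, receptor genes had small median changes. Of all genes tested, 0.311% were called higher and 0.0421% lower, so 0 calls in lists this small say little. At an unadjusted p under 0.05 (edgeR), 5.19% of all genes tested were higher and 4.31% lower. Of the 38 monoamine and acetylcholine receptor genes tested, 2 rose (Hrh3 and Chrm4) and 0 fell, with a median log2 change of 0.06, against a median of 0.00 over all genes tested. Of the 52 neuropeptide and neuropeptide receptor genes, 1 rose (Vipr1) and 0 fell (median 0.00). None of the 33 glutamate receptor genes passed (edgeR, with 5 at an unadjusted p under 0.05), and the smallest p values belonged to Grik1 (log2 change −0.30, adjusted p = 0.405) and Grik5 (log2 change 0.11, adjusted p = 0.419), both kainate receptor subunits. None of the 23 GABA receptor genes passed (edgeR, with 5 at an unadjusted p under 0.05), among them Gabre (log2 change −0.64, adjusted p = 0.254). None of 52 potassium channel genes or 50 presynaptic release genes passed (edgeR, with 2 and 3 at an unadjusted p under 0.05), and their medians were 0.01 and 0.00.

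Several kinases and transcription factors, grouped here after the calls were seen, were also called. Mknk2 encodes a kinase that is activated by MAP kinases and phosphorylates the translation factor eIF4E. It had 57.7, 51.1, 54.7 and 54.8 CPM in defeat and 45.0, 42.8, 42.2 and 42.2 CPM in control (log2 change 0.34 ± 0.06 SE, edgeR adjusted p = 0.00543). Srf, serum response factor, which binds the promoters of many immediate early and cytoskeletal genes, had 71.5, 63.6, 70.5 and 66.8 CPM in defeat and 56.6, 54.5, 57.4 and 53.6 CPM in control (log2 change 0.29 ± 0.05 SE, adjusted p = 0.00872). Both genes had separate groups. The call of Srf was lost without defeat replicate 1 and when transcript GC content was corrected for (adjusted p = 0.0749). Map2k3, a kinase that activates p38, also rose (log2 change 0.46), as did Erf, a repressor controlled by the ERK kinases (0.28), and Nab2, a corepressor of the early growth response factors (0.38), whose call was lost when any 1 of the 8 libraries was left out. Sox21 (0.65) and Sox11 (0.33), transcription factors best known from neural development, rose too. The MAP kinase feedback list, made of the phosphatases and Sprouty and Spred proteins that damp this pathway, had 0 of 19 tested members called (edgeR, with 8 higher and 1 lower at an unadjusted p under 0.05, against 5.19% and 4.31% of all genes tested). Its median log2 change was 0.16, or 0.11 with GC content corrected for. Its leading members were Dusp7 (log2 change 0.20, edgeR adjusted p = 0.0739) and Dusp8 (0.16, adjusted p = 0.1003). Vegfa, the vascular growth factor, led the neurotrophin and growth factor list without passing (log2 change 0.24, adjusted p = 0.0693), and Bdnf had a log2 change of −0.13 (adjusted p = 0.865).

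**Figure D1:**
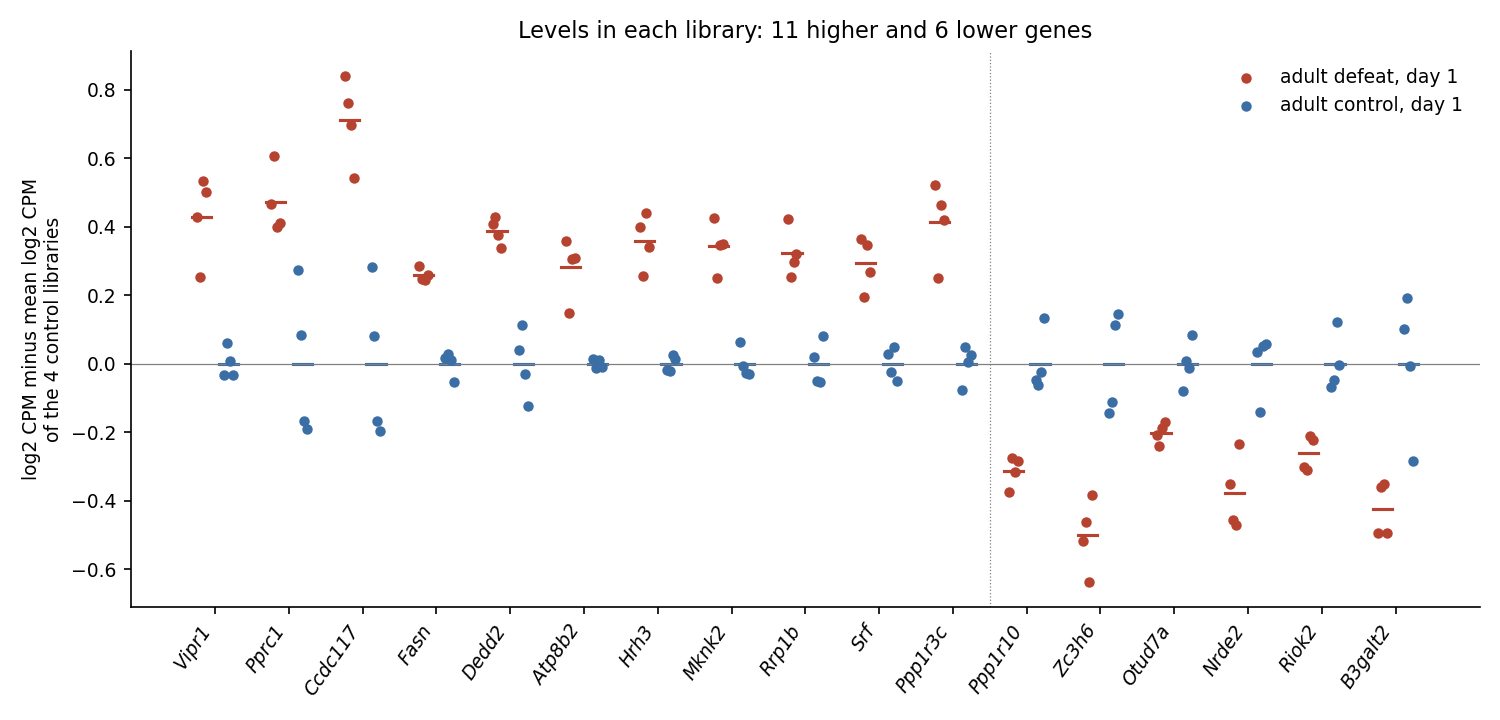
Levels of 11 of the 12 higher genes with the smallest p outside the activity and clock lists and of the 6 lower genes with gene symbols, 1 point per library, as log2 CPM minus the mean log2 CPM of the 4 control libraries. Defeat libraries are red and stand left of the blue control libraries, and short bars are group means. All 4 defeat libraries lie above the control libraries for the 11 genes left of the dotted line and below them for the 6 genes right of it.

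Genes of lipid metabolism leaned higher. Fasn, fatty acid synthase, had 337, 328, 327 and 331 CPM in the defeat libraries and 279, 282, 278 and 266 CPM in the control libraries (log2 change 0.26 ± 0.04 SE, edgeR adjusted p = 0.00369). The difference was small and the spread within each group smaller still. The call of Fasn was kept with GC content corrected for and lost with GC content and transcript length corrected for. It was also lost without the libraries above 100 CPM of Ttr and with the 8 libraries fitted alone. Of the 41 cholesterol and fatty acid synthesis genes tested, 2 rose, Fasn among them, and 0 fell. At an unadjusted p under 0.05, 21 of the 41 were higher, against 5.19% of all genes tested, and 0 were lower, against 4.31%. The list's median log2 change was 0.13, and 37 of the 41 changes were above 0. Insig1, a sterol-sensing regulator, did not pass (log2 change 0.26, adjusted p = 0.0515). Summed over the list, levels were 5281 to 5644 CPM in defeat and 4855 to 4975 CPM in control, so the groups did not overlap. The median over the 41 genes was 0.12 when transcript GC content was corrected for.

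Other metabolic genes outside that list rose as well. Ppp1r3c, which recruits protein phosphatase 1 to glycogen and promotes glycogen storage, had 66.5, 55.02, 63.8 and 61.8 CPM in defeat and 43.8, 47.8, 46.4 and 47.1 CPM in control (log2 change 0.42 ± 0.08 SE, edgeR adjusted p = 0.00933). Its groups were separate, and its call was lost without defeat replicate 1. Atp8b2, a flippase that moves phospholipids across membranes, had 118, 102, 114 and 114 CPM in defeat and 92.9, 91.3, 92.8 and 91.4 CPM in control (log2 change 0.28 ± 0.05 SE, adjusted p = 0.00518). Pprc1, a relative of the coactivator PGC-1alpha that stimulates mitochondrial biogenesis, had 31.6, 34.8, 30.2 and 30.4 CPM in defeat and 27.6, 24.2, 20.4 and 20.01 CPM in control (log2 change 0.46 ± 0.08 SE, adjusted p = 0.00369). Control replicate 1 was the highest control for Pprc1 and remained below every defeat library. Slc25a25, a mitochondrial carrier of ATP-Mg and phosphate (log2 change 0.25), and Plekha8, a glycolipid transfer protein (0.33), also passed. The call of Slc25a25 was lost when any 1 of the 8 libraries was left out. Of the 24 mitochondrial biogenesis genes, 1 rose (Pprc1) and 0 fell (median 0.04), against 0.311% higher and 0.0421% lower over all genes tested. Of 53 nuclear oxidative phosphorylation genes, 0 passed (edgeR, with 3 lower at an unadjusted p under 0.05; median −0.02). The 13 mitochondrially encoded transcripts had 0 calls (edgeR, with 2 lower at an unadjusted p under 0.05) and 13 of 13 log2 changes below 0 (median −0.14, or −0.05 with GC content corrected for), and summed to 49873 to 55529 CPM in defeat and 45344 to 69268 CPM in control.

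Chromatin enzymes were a further group that leaned higher. Setd1b, which methylates lysine 4 of histone H3, had 45.9, 45.4, 46.4 and 41.6 CPM in defeat and 36.5, 35.7, 35.9 and 31.4 CPM in control (log2 change 0.36 ± 0.07 SE, edgeR adjusted p = 0.0115). Its groups were separate, and its call was lost without control replicate 4 or defeat replicate 1. Kdm6b, which removes methyl groups from lysine 27 of histone H3, had 48.5, 47.9, 53.0 and 48.1 CPM in defeat and 38.4, 36.1, 35.3 and 33.6 CPM in control (log2 change 0.46 ± 0.09 SE, adjusted p = 0.0180). Setd2, the methyltransferase of lysine 36 of histone H3, had 82.2, 80.4, 75.4 and 79.0 CPM in defeat and 71.4, 71.7, 71.8 and 67.8 CPM in control (log2 change 0.17 ± 0.04 SE, adjusted p = 0.0411). Kdm6b passed in 3 of the 8 fits that left out 1 library, those without control replicate 1, defeat replicate 2 or defeat replicate 4, and Setd2 in only the fit without defeat replicate 3. Of the 76 chromatin regulators tested, these 3 rose and 0 fell. At an unadjusted p under 0.05, 28 of the 76 were higher, against 5.19% of all genes tested, and 0 were lower, against 4.31%. Among the 28 were Setdb1 (log2 change 0.20, adjusted p = 0.0615) and Kdm2a (0.18, adjusted p = 0.0686), which did not pass. The median of the list was 0.07, or 0.06 with GC content corrected for, and its summed level was 6867 to 7079 CPM in defeat and 6316 to 6636 CPM in control. Regulators outside the list that rose include Jmjd6, a nuclear hydroxylase (0.33), Bcorl1, a corepressor (0.34), Bcl9l, a coactivator of Wnt signalling (0.31), and Spen, a large RNA-binding repressor (0.38). The calls of Setd1b, Kdm6b, Bcorl1, Bcl9l and Spen were lost when GC content was corrected for, and those of Setd2 and Jmjd6 were kept.

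Genes of the interferon response and of class I antigen presentation also leaned higher. H2-D1 and H2-K1 encode the classical class I molecules that present peptides to CD8 T cells, and Irf9 is the DNA-binding subunit of the factor that carries type I interferon signals to the nucleus. H2-D1 had 45.1, 40.2, 47.3 and 36.9 CPM in defeat and 27.0, 28.5, 28.9 and 33.5 CPM in control (log2 change 0.52 ± 0.10 SE, edgeR adjusted p = 0.0180). H2-K1 had 32.1, 30.1, 34.3 and 26.5 CPM in defeat and 20.9, 18.9, 25.9 and 21.03 CPM in control (log2 change 0.50 ± 0.10 SE, adjusted p = 0.0180). The lowest defeat library was only just above the highest control library for H2-K1. Because these genes are related in sequence, some reads could be split between them, and the division between H2-D1 and H2-K1 is uncertain. How reads were assigned between them was not tested. Irf9 had 21.8, 20.9, 24.6 and 18.6 CPM in defeat and 15.7, 13.4, 16.5 and 13.2 CPM in control (log2 change 0.55 ± 0.11 SE, adjusted p = 0.0211). Each of the 3 passed in 3 of the 8 fits that left out 1 library. H2-D1 lost its call without control replicates 1, 2 or 3 or defeat replicates 1 or 3, H2-K1 without control replicates 1, 2 or 4 or defeat replicates 1 or 3, and Irf9 without control replicates 2 or 4 or defeat replicates 1, 2 or 3. Of the 49 genes of the list that were tested, these 3 rose and 0 fell, 18 were higher and 1 was lower at an unadjusted p under 0.05, against 5.19% and 4.31% of all genes tested. Of the 49 changes, 45 were above 0, against 11652 of the 23778 over all genes tested. The list's median log2 change was 0.21, and its sums did not overlap by a narrow margin, with 621.4 to 771 CPM in defeat and 546 to 621.3 CPM in control. Members that did not pass include H2-Q4 (0.78, adjusted p = 0.0739) and Ifit1 (0.92, adjusted p = 0.180). Rnf213, a giant ubiquitin ligase (log2 change 0.67), also rose.

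None of the listed markers of cells that could carry these transcripts passed. Of 17 microglia markers, 0 passed (edgeR, with 1 at an unadjusted p under 0.05; median 0.07), and their summed level was 650 to 830 CPM in defeat and 587 to 787 CPM in control. Of 23 endothelial and pericyte markers, 0 passed (edgeR, with 1 at an unadjusted p under 0.05; median 0.07), with sums of 726 to 880 CPM in defeat and 677 to 818 CPM in control. The 7 blood markers tested all had changes above 0 (median 0.41, 0 called, 0 at an unadjusted p under 0.05), with sums of 70.7 to 181 CPM in defeat and 57.0 to 168 CPM in control. The 18 choroid plexus markers also had changes above 0 (median 0.59, 0 called, 0 at an unadjusted p under 0.05), with ranges that overlapped. In bulk tissue, fewer cells of a type and less RNA per cell cannot be told apart. The part of these cell types in the class I and interferon changes was not tested. Vwf, the von Willebrand factor of endothelial cells, is not in the endothelial list and was called. It had the largest change of any called gene outside gene models and microRNA genes, with 15.3, 8.89, 9.52 and 14.5 CPM in defeat and 4.61, 3.99, 5.94 and 7.56 CPM in control (log2 change 1.13 ± 0.24 SE, edgeR adjusted p = 0.0314). Defeat replicates 1 and 4 were the highest, control replicate 4 the highest control, and the groups did not overlap. Its call was lost without control replicates 1, 2 or 3 or defeat replicates 1 or 4. Haemoglobin Hbb-bs, which marks red cells left in vessels, was at 70.7, 42.8, 26.4 and 45.5 CPM in defeat and 26.7, 22.8, 30.2 and 62.7 CPM in control, and did not pass (adjusted p = 0.712).

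**Figure D2:**
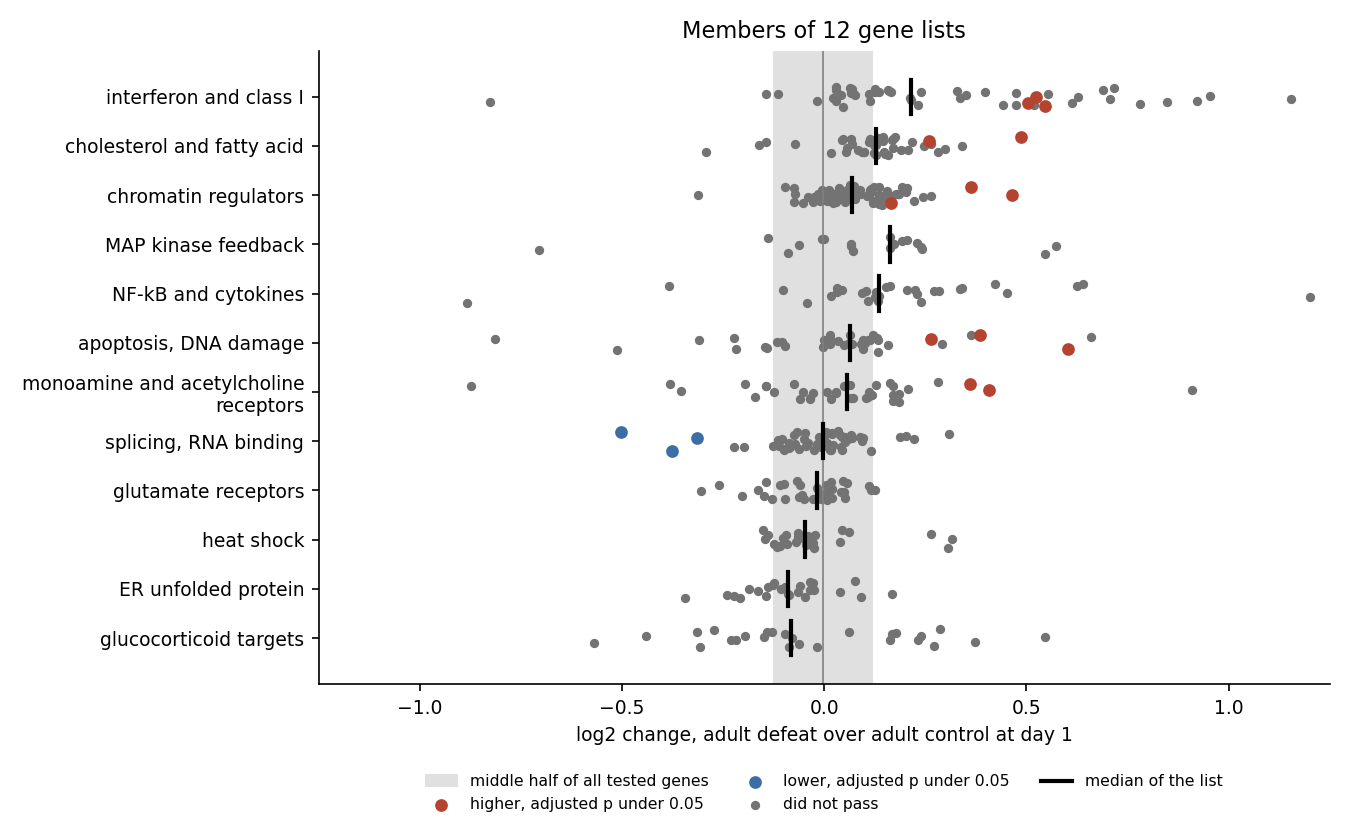
Log2 change of adult defeat over adult control at day 1 for each tested member of 12 gene lists (x axis), with the median of each list as a black bar and the interquartile range of all tested genes in grey. Red and blue points passed at an adjusted p under 0.05 as higher and lower, and 1 member beyond the axis limit of 1.2 is drawn at the limit. The interferon, cholesterol and chromatin lists lie mostly right of 0, the list of the endoplasmic reticulum lies mostly left of it, and the 3 blue points are all in the splicing list. The lists were written with earlier results of these data known.

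Called genes with roles in RNA handling, translation and protein turnover included higher and lower ones. Rrp1b, a nucleolar protein of ribosome assembly that also acts in transcription and splicing, had 31.6, 28.1, 29.0 and 29.5 CPM in defeat and 23.9, 22.8, 22.7 and 24.98 CPM in control (log2 change 0.32 ± 0.06 SE, edgeR adjusted p = 0.00543). Eif4ebp2, the main brain form of the proteins that hold eIF4E inactive, had 75.8, 71.4, 71.1 and 72.4 CPM in defeat and 62.3, 63.4, 62.2 and 60.3 CPM in control (log2 change 0.23 ± 0.05 SE, adjusted p = 0.0478). Both had separate groups, and the call of Eif4ebp2 was lost when any 1 of the 8 libraries was left out. Alkbh5, which removes the m6A mark from RNA (0.23), and Patl1, a factor of messenger RNA decapping (0.22), rose. Mex3d, an RNA-binding protein (0.42), and Znfx1, an RNA helicase-like protein (0.22), rose as well. Alkbh5 and Znfx1 lost their calls in all 8 fits that left out 1 library, Patl1 in all but the fit without defeat replicate 4, and Mex3d in all but those without defeat replicate 4 or control replicate 2. Of 30 translation and amino acid genes tested, 1 rose (Eif4ebp2) and 0 fell (median 0.03), against 0.311% higher and 0.0421% lower over all genes tested. Of 71 cytosolic ribosomal protein genes 0 passed (edgeR, with 0 at an unadjusted p under 0.05, median 0.00).

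Of the 10 lower genes, 3 were in the splicing and RNA-binding list. That list was written with earlier results of these data known, so their membership is not independent of these calls. Ppp1r10, also called PNUTS, directs protein phosphatase 1 to RNA polymerase II and to the ends of transcripts. It had 48.4, 51.9, 50.4 and 51.6 CPM in defeat and 60.7, 60.1, 61.7 and 68.9 CPM in control (log2 change −0.31 ± 0.05 SE, edgeR adjusted p = 0.00369). Zc3h6, a zinc finger protein of the CCCH type, had 11.6, 12.02, 10.6 and 12.7 CPM in defeat and 14.98, 15.3, 17.9 and 18.3 CPM in control (log2 change −0.50 ± 0.09 SE, adjusted p = 0.00793). Every defeat library of both genes lay below every control library, and Zc3h6 lost its call only without control replicate 4 among the fits that left out 1 library. Nrde2, a nuclear protein that protects messenger RNA from the nuclear exosome, had 15.2, 14.1, 13.97 and 16.5 CPM in defeat and 19.8, 17.5, 20.1 and 20.1 CPM in control (log2 change −0.38 ± 0.09 SE, adjusted p = 0.0432). These were the members of that list that fell, of 61 tested, against 0.0421% lower over all genes tested. In that list 0 rose (median 0.00). Its leading members in the other direction, which did not pass, were Nova2 (0.19, adjusted p = 0.0611) and the splicing kinase Clk1 (0.31, adjusted p = 0.1).

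Riok2, a kinase needed to mature the small ribosomal subunit, had 18.9, 18.8, 20.1 and 19.99 CPM in defeat and 22.3, 22.6, 25.4 and 23.3 CPM in control (log2 change −0.26 ± 0.06 SE, edgeR adjusted p = 0.0436). It was the only called member among 47 ribosome biogenesis genes (median 0.01), against 0.0421% called lower over all genes tested. Otud7a, a deubiquitinase found at dendritic spines, had 47.2, 46.1, 47.9 and 48.4 CPM in defeat and 51.6, 54.8, 54.0 and 57.8 CPM in control (log2 change −0.20 ± 0.04 SE, adjusted p = 0.0369). B3galt2, a galactosyltransferase that builds sugar chains on proteins and lipids, had 37.3, 40.9, 41.1 and 37.2 CPM in defeat and 56.3, 59.9, 52.2 and 43.0 CPM in control (log2 change −0.43 ± 0.10 SE, adjusted p = 0.0495). The groups of all 3 were separate, with control replicate 4 of B3galt2 nearest to the defeat libraries. Riok2 lost its call whichever of the 8 libraries was left out, Otud7a and B3galt2 passed in 1 of those 8 fits each (without control replicate 1 for Otud7a and without control replicate 4 for B3galt2), and Nrde2 in 2 (without control replicate 2 or defeat replicate 4).

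Genes of cell survival and of the DNA damage response were among the higher ones. Dedd2, a death effector domain protein that binds DNA, had 31.4, 31.8, 30.7 and 29.9 CPM in defeat and 24.3, 25.6, 23.2 and 21.7 CPM in control (log2 change 0.38 ± 0.06 SE, edgeR adjusted p = 0.00369). Mcl1, an antiapoptotic member of the Bcl-2 family, had 82.7, 83.5, 79.1 and 77.3 CPM in defeat and 71.8, 68.2, 64.2 and 64.5 CPM in control (log2 change 0.26 ± 0.06 SE, adjusted p = 0.0308). The groups of both were separate, and Mcl1 passed in 2 of the 8 fits that left out 1 library, those without control replicate 1 or defeat replicate 4. With Gadd45b, which is also in the activity list, 3 of the 37 apoptosis and DNA damage genes tested rose and 0 fell (median 0.06). Over all genes tested, 0.311% were called higher and 0.0421% lower. At an unadjusted p under 0.05 (edgeR), 6 of the 37 were higher and 4 lower, against 5.19% and 4.31% of all genes tested. Rnf169, a ubiquitin-binding protein recruited to DNA breaks (0.26), and Atrip, the partner of the checkpoint kinase ATR (0.24), rose outside the list. Atrip overlaps Trex1 on the same strand, so reads of the overlap cannot be told apart. Ccdc117, a coiled-coil protein with less well known functions, had 25.4, 24.03, 22.96 and 20.6 CPM in defeat and 17.2, 14.97, 12.6 and 12.4 CPM in control (log2 change 0.70 ± 0.12 SE, adjusted p = 0.00369). It had the largest log2 change of the 12 higher genes with the smallest p outside the activity and clock lists.

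A few called genes encode proteins of cell contacts and of the cytoskeleton, and were grouped here after the calls were seen. Ctnnd1, the p120 catenin of cadherin junctions, had a log2 change of 0.22, Frmd6, a FERM domain protein, 0.37, Cdc42ep4, an effector of the GTPase Cdc42, 0.41, and Trak1, an adaptor for mitochondrial transport along axons, 0.21. Lzts1, a leucine zipper protein of the postsynaptic side, had 0.26. None of the 54 postsynaptic scaffold and adhesion genes passed (edgeR, with 3 at an unadjusted p under 0.05), and their median was 0.02.

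Stress pathways tied to corticosteroids and to protein folding had no called member. Of all genes tested, 0.311% were called higher and 0.0421% lower, so 0 calls in lists this small say little. At an unadjusted p under 0.05 (edgeR), 5.19% of all genes tested were higher and 4.31% lower. Of 26 glucocorticoid target genes tested, 0 passed (edgeR, with 2 higher and 0 lower at an unadjusted p under 0.05), and the median log2 change was −0.08. Their smallest p values belonged to Dusp1, a MAP kinase phosphatase (0.55, adjusted p = 0.260), and Errfi1, an inhibitor of the EGF receptor (0.24, adjusted p = 0.383). Fkbp5, a cochaperone strongly induced by glucocorticoids, had 39.9, 41.3, 39.7 and 48.9 CPM in defeat and 53.5, 47.2, 45.2 and 48.8 CPM in control (log2 change −0.20 ± 0.11 SE, edgeR adjusted p = 0.602), and its groups overlapped. Nr3c1, the glucocorticoid receptor, had a log2 change of 0.11 (adjusted p = 0.666), and Crh, corticotropin-releasing hormone, −0.11 (adjusted p = 0.918). The 25 genes of the unfolded protein response of the endoplasmic reticulum leaned lower. Of these, 0 passed, while 9 were lower and 1 was higher at an unadjusted p under 0.05 (edgeR, median −0.09). Of the 25 changes in this endoplasmic reticulum list, 21 were below 0, against 12120 of the 23778 over all genes tested. Hsp90b1, its chaperone GRP94, had 345, 392, 398 and 373 CPM in defeat and 467, 428, 437 and 411 CPM in control (log2 change −0.21 ± 0.05 SE, adjusted p = 0.0794). Pdia6, a protein disulfide isomerase, had a log2 change of −0.24 (adjusted p = 0.125). Cytosolic heat shock genes had 0 of 26 called (edgeR, with 2 higher and 4 lower at an unadjusted p under 0.05; median −0.05), with the cochaperones Dnajb5 (0.31, adjusted p = 0.0531) and Dnajb1 (0.32, adjusted p = 0.232) first by p. Insulin and mTOR pathway genes had 0 of 38 called (edgeR, with 7 higher and 2 lower at an unadjusted p under 0.05; median 0.04), led by Foxo3 (0.17, adjusted p = 0.126).

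Base composition moved with the comparison. Genes with a mean of over 1 CPM in the 8 libraries were ranked by the GC content of their longest annotated transcript and divided into 5 bins of near-equal size. The median log2 change was −0.05, −0.02, 0.01, 0.02 and 0.04 over the bins in rising order of GC content. In adolescents at day 1 the medians over these bins rose too, at −0.028, −0.010, −0.001, 0.014 and 0.024. In adults at day 21 they lay between −0.010 and −0.001. Of the higher genes above that level, 0, 9, 11, 17 and 36 were in these bins, and of the lower genes 5, 0, 0, 2 and 1. Median GC content was 55.5% over the higher genes and 43.0% over the lower genes, against 49.2% over all genes tested. Across genes, the deviation of a library's log2 CPM from the mean of all 32 libraries had a Spearman correlation with GC content of 0.04, −0.15, 0.05 and −0.02 in the defeat libraries and of −0.29, −0.28, −0.30 and 0.02 in the control libraries, over genes that are not independent replicates. Control replicates 1, 2 and 3 thus stood apart from control replicate 4 and from the defeat libraries. With transcript length the same correlations were 0.13, 0.18, 0.16 and 0.20 in the defeat libraries. In the control libraries they were 0.16, 0.17, 0.15 and −0.22, so for length control replicate 4 stood apart. With GC content corrected for in each library, an alternative chosen after seeing the data, 54 genes passed, 46 higher and 8 lower, and 50 of the 84 genes were among them. Of the 69 called genes outside the activity and clock lists, 40 passed with GC content corrected for and 27 with GC content and transcript length corrected for. Of the 17 genes in the plot of levels by library, the calls of Srf, Riok2 and B3galt2 were lost with GC content corrected for. The part of GC content in the changes that were lost was not tested further.

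**Figure D3:**
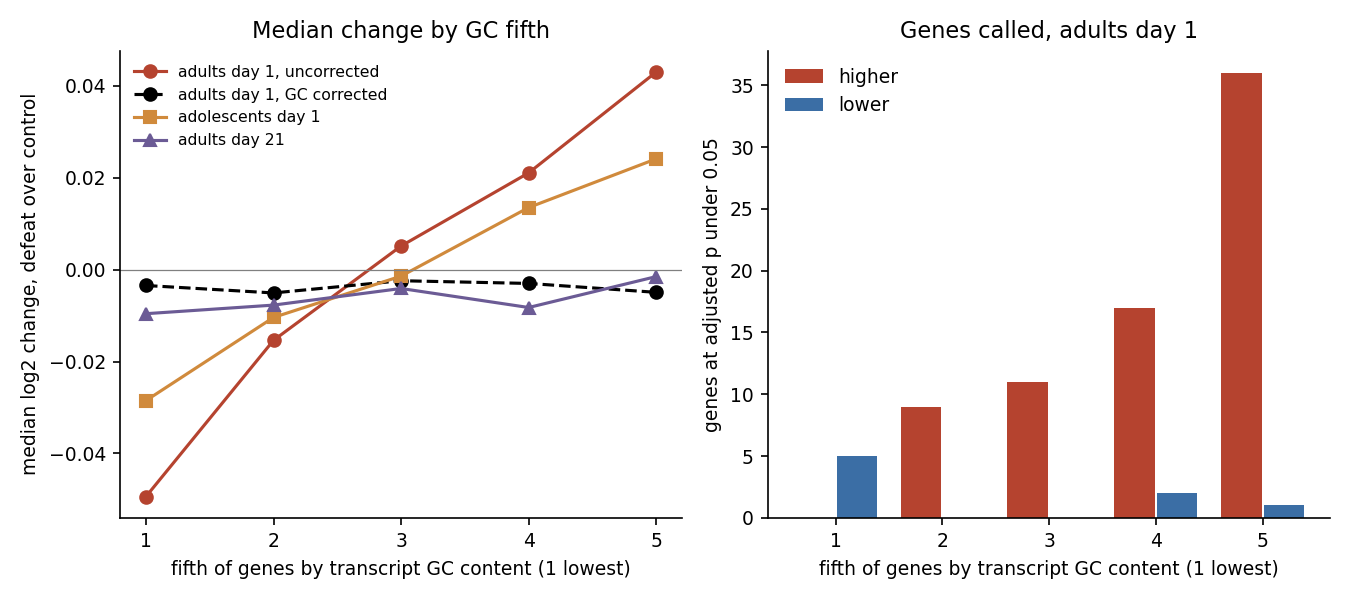
Left, the median log2 change of defeat over control (y axis) in 5 bins of genes over 1 CPM ranked by transcript GC content (x axis), for adults at day 1 without and with GC correction, adolescents at day 1 and adults at day 21. Right, the number of genes called in adults at day 1 in each bin, higher in red and lower in blue. The uncorrected adult day 1 medians and the adolescent day 1 medians climb from bin to bin. The bin with the most GC holds 36 of the genes called higher in adults at day 1.

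Without the 11 libraries of the series above 100 CPM of Ttr, which removes 2 adult defeat and 1 adult control libraries at day 1, 13 genes passed and 11 of them were among the 84. Outside the activity and clock lists, Vipr1, Pprc1, Ccdc117, Atp8b2 and Mknk2 kept their calls (adjusted p = 0.0283, 0.0351, 0.0351, 0.0353 and 0.0424), with 1 gene model. That fit also has fewer libraries. No called gene changed direction in it. Each of these 5 genes also passed with GC content corrected for and in all 8 fits that left out 1 adult day 1 library. When the 8 libraries were fitted alone, with fewer degrees of freedom, 20 genes passed, 14 of them among the 84. Of those 5 genes only Mknk2 then kept its call, and outside the activity and clock lists so did Hrh3, Ppp1r3c, Kdm6b, Tnfrsf25, Nab2 and Ier5l. In total, 18 of the 84 genes passed in all 8 fits that left out 1 library, 11 of them outside the activity and clock lists, and 12 of the 84 passed in none. The called genes outside those lists that are given above by a log2 change alone lost their calls in at least 3 of these fits each.

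The effect at day 1 was set against that at day 21 in adults, in libraries that share no sample with it. The difference between the effects was higher at day 1 for 118 genes (0.496% of the genes tested) and lower for 30 genes (0.126%). These 148 genes became 88 without day 1 control replicate 4, 90 without day 21 control replicate 2, 82 without day 21 defeat replicate 2 and 269 without day 21 defeat replicate 1. Since the adult day 1 libraries enter both the calls and the difference, a gene called at day 1 is more likely to be called here as well. Of the 74 higher genes, 59 also passed in this difference, and of the 10 lower genes 7 did. Outside the activity and clock lists, Ccdc117 had the smallest p, with a log2 change of 0.70 at day 1 and −0.38 at day 21 (difference 1.08 ± 0.16 SE, edgeR adjusted p = 0.00151). In the activity and clock lists the differences were 1.47 for Egr4, 1.16 for Per1, 1.09 for Fosl2 and 1.23 for Egr1. Zc3h6 had −0.50 at day 1 and 0.38 at day 21 (difference −0.89 ± 0.13 SE, adjusted p = 0.000918), and Ppp1r10 had −0.31 at day 1 and 0.10 at day 21 (difference −0.41 ± 0.07 SE, adjusted p = 0.00522). Ccsap, a centriole protein (difference −0.48), Atosa (−0.57) and Zfp143, a zinc finger transcription factor (−0.65), also passed in this difference without passing at day 1 alone. At day 21 on its own, 66 of the 74 genes had a log2 change below 0, with a median of −0.13, against a share above 0 of 50.03% over all genes tested and a median of 0.00. The adult day 21 libraries entered the calls at day 1 only through the spread that was estimated over all 8 groups.

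Of the other genes described above, some passed in the difference between the days and some did not. The difference was 0.30 for Fasn (adjusted p = 0.0134), 0.60 for Pprc1 (adjusted p = 0.00522), 0.39 for Hrh3 (adjusted p = 0.0333) and 0.40 for Vipr1 (adjusted p = 0.0227), each by edgeR. For H2-D1 it was 0.65 (edgeR adjusted p = 0.0297) and for Irf9 0.82 (adjusted p = 0.00934). It did not pass for H2-K1 (0.47, adjusted p = 0.167), Ppp1r3c (0.40, adjusted p = 0.1003) or Vwf (0.85, adjusted p = 0.334).

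The effect in adults was also set against that in adolescents at day 1. The difference passed for 4 genes, all larger in adults (0.0168% of the genes tested), and for 0 in the other direction. It passed for 0 genes without any 1 of adult defeat replicate 1, adult control replicates 3 and 4, adolescent defeat replicates 1 and 4 and adolescent control replicates 3 and 4, for 1 gene without adolescent defeat replicate 3, and for 11 genes without adolescent control replicate 1. With the 4 groups fitted alone it passed for 0 genes, and with DESeq2 for 48. The 3 with gene symbols were Egr4 (0.91 in adults and −0.15 in adolescents, difference 1.06 ± 0.17 SE, edgeR adjusted p = 0.0195), Fosl2 (0.65 and −0.22, difference 0.87 ± 0.15 SE, adjusted p = 0.0195) and Vipr1 (0.43 and −0.04, difference 0.47 ± 0.09 SE, adjusted p = 0.0439). The fourth was a gene model. Pprc1 came close without passing (0.46 in adults and −0.11 in adolescents, adjusted p = 0.0542). The 74 higher genes had a median log2 change of 0.04 in adolescents, where 45 of 74 (60.8%) were above 0, against 49.0% of all genes tested. H2-D1, H2-K1 and Vwf had nearly equal changes in both age classes, with 0.53, 0.49 and 1.09 in adolescents, and the test of the difference did not pass (edgeR adjusted p = 1, 0.998 and 0.996). In adolescents H2-D1 passed on its own (adjusted p = 0.0419) and H2-K1 and Vwf did not (adjusted p = 0.0562 and 0.0737). All 4 adolescent defeat libraries at day 1 were above 100 CPM of Ttr, against 1 of 4 adolescent control libraries, so choroid plexus transcripts and defeat cannot be told apart in that age class.

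**Figure D4:**
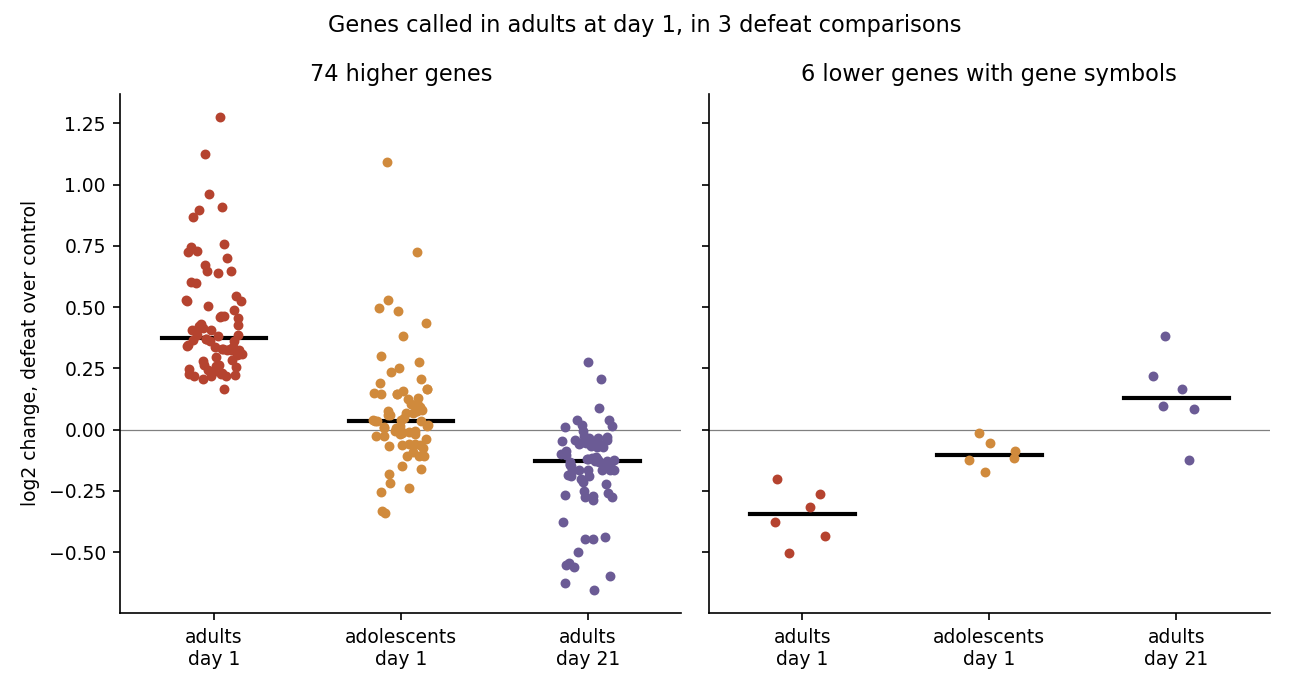
Log2 change of defeat over control (y axis) for adults (day 1 and day 21) and adolescents (day 1), for the 74 higher genes (left) and the 6 lower genes with gene symbols (right) called in adults at day 1. Points are genes and black bars are medians. The medians of the higher genes are 0.37 at day 1 and −0.13 at day 21 in adults, and 0.04 in adolescents.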

How the data were processed

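Per the labels, RNA of mouse basolateral amygdala was selected with oligo(dT), and the authors deposited whole-number read counts and FPKM values for 40392 genes in 32 libraries, 8 groups of 4. The submitters' processing notes name cutadapt 1.9, HISAT2 2.0.4, StringTie 1.3.4d, edgeR and hg38, a human build, although the identifiers are mouse ones, so no gene position from the table is printed. The sources do not state how strand was handled. Mouse gene names were found for 37197 identifiers.

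Counts were tested with edgeR 4.0.16 (R 4.3.3): its default filter by group kept 23778 genes with 99.975% of counts, libraries were scaled by TMM, and 8 group means were fitted with 24 residual degrees of freedom. Quasi-likelihood F tests were 2-sided, with Benjamini-Hochberg adjustment over all tested genes and a threshold of 0.05. Standard errors (SE) were taken from the size of the log2 change over the root of F. The deposited FPKM values served only for alternatives. GC content and length are of the longest transcript in GENCODE M21. The scripts were tested on simulated data. The comparison, the 46 gene lists and the rules were chosen with earlier results of these data known. Named were passing genes, gene models excepted, with values by library for the 12 higher genes of smallest p outside the activity and clock lists, all lower ones and up to 4 passing members per list. For a list without one, the 2 of smallest p could be named. Some genes that these rules name are not reported here. H2-Q4, Ifit1, Insig1, Setdb1, Kdm2a, Nova2, Clk1, Camk2a and Hbb-bs were named, and values by library of Tnfrsf25 and Vwf given, after their values were seen. Alternatives were DESeq2 1.42.0, limma 3.58.1 on log2(FPKM + 0.1) and log2(FPKM + 1), other scalings, filters and designs, and each library left out.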

Additional observations from a re-analysis of the deposited data

Results flagged for a closer look

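In groups of 4 libraries, 1 library of a called gene was set apart from the others in 9 of 168 groups by Dixon's test, which chance alone does in about 1 in 20. In the defeat group these were Nr1d1 in replicate 4 (109 CPM, high), Kdm6b in replicate 3 (53.0 CPM, high) and Spen in replicate 3 (78.3 CPM, low). In the control group they were Setd1b (31.4 CPM), Egr1 (202 CPM) and Setd2 (67.8 CPM), each low in replicate 4, Zfp467 in replicate 1 (25.1 CPM, low), Bhlhe41 in replicate 1 (45.5 CPM, high) and Nrde2 in replicate 2 (17.5 CPM, low). Control replicate 4 was low in 3 of them, and it is also the control library whose levels did not fall with GC content.

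The effect of defeat differed between adults and adolescents at day 1, by a test of the difference in edgeR, for Egr4 (log2 difference 1.06), Fosl2 (0.87) and Vipr1 (0.47). That test passed for 0 genes when any 1 of several libraries was left out, as given above. In adults it differed between day 1 and day 21 for Egr4 (1.47), Per1 (1.16), Fosl2 (1.09), Ccdc117 (1.08), Egr1 (1.23), Zc3h6 (−0.89), Ccsap (−0.48), Ppp1r10 (−0.41), Atosa (−0.57) and Zfp143 (−0.65), the 5 of smallest p in each direction.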

How the results depend on the processing

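No called gene of the adult day 1 effect changed direction under any alternative in which it was tested (79 of the 84 at a mean FPKM of at least 1 and in the limma fits on FPKM, all 84 in the others). Mknk2 kept its call in all 22 alternatives other than the one that asks for a log2 change of at least 1. Its 84 calls (74 higher, 10 lower) became 208 with DESeq2 (170 higher, 38 lower), 137 with limma on log2(FPKM + 1) (122 higher), 48 with no filter on low counts (43 higher, 5 lower), 20 when only the groups compared were fitted (20 higher, 0 lower) and 270 at an unadjusted p with a log2 change of at least 1 (160 lower, and only 4 of the 84 among them). Genes with a mean FPKM of at least 1 gave 17 lower. GC correction gave 54 (46 higher), GC and length correction 42 (34 higher), and removal of every library over 100 CPM of Ttr 13 (11 higher, 2 lower). These last alternatives were chosen after seeing the data. Each library left out gave 27 to 58 calls (22 to 49 higher, 2 to 10 lower), with the lowest count without defeat replicate 1. The cause was not tested beyond the smaller number of samples.

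The 4 genes of the age difference became 11 at a mean FPKM of at least 1, 48 with DESeq2 (34 higher, 14 lower), 12 with either limma fit on FPKM, 8 with library weights, 0 when only the groups compared were fitted, 340 at an unadjusted p with a log2 change of at least 1 (159 higher, 181 lower) and 0 to 11 with 1 library left out (0 lower in each). It could not be fitted without the libraries above 100 CPM of Ttr, since no adolescent defeat library at day 1 remained. The 148 genes of the day difference became 94 with no filter (74 higher), 295 with DESeq2 (213 higher, 82 lower), 97 when only the groups compared were fitted (14 lower), 560 at an unadjusted p with a log2 change of at least 1 (227 higher, 333 lower), 38 without the libraries above 100 CPM of Ttr (33 higher, 5 lower) and 82 to 269 with 1 library left out (66 to 201 higher, 16 to 68 lower).

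With the replicate number as a block, the adult day 1 effect had 60 genes (56 higher, 4 lower), 47 of them among the 84, and the age difference 13 genes (12 higher, 1 lower). The labels do not say that a number pairs libraries, and deviations of same-numbered defeat and control libraries correlated at −0.41, 0.01, −0.23 and 0.14, so the pairing was not used.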
